A study of Rattus norvegicus with 2 samples.

Results

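Small RNA was sequenced from exosomes that neonatal rat cardiomyocytes released into their medium, and the miR-34 and miR-449 family was followed through the table of reads per mature miRNA. The cells were primary cultures of minced hearts from Wistar rats of 1 to 2 days of age, enriched by differential adhesion and plated with BrdU, and were starved of serum before treatment. Normal cardiomyocytes, kept without angiotensin II (Ang II), gave NC-Exo, and cells made hypertrophic by 48 h of Ang II at 1 μmol/L gave HC-Exo. Each condition was sequenced as 1 library, and none of the differences given here has a replicate check. Rows whose name is miR-34a, miR-34b, miR-34c, miR-449a, miR-449b or miR-449c on either arm were taken as members. The table listed 6 of them among 635 miRNAs, both arms of miR-34a, miR-34b and miR-34c (with mmu-miR-34a-5p, mmu-miR-34b-5p and mmu-miR-34c-5p as the 5p rows), and no row was listed under a miR-449 name. A miRNA without any read in these libraries has no row, and whether miR-449 names were part of the reference used for counting is not known, so miR-449 carries no measured level.

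Each miRNA hairpin is cut into a duplex whose strands, the 5p arm and the 3p arm, can each be loaded into Argonaute. The loaded strand finds its mRNA targets mainly through the seed, bases 2 to 8 from its 5′ end. The miR-34 genes are direct transcriptional targets of p53, and their 5p arms repress mRNAs for cell cycle and survival proteins. In the heart, miR-34a is known for rising with age and after injury. The miR-449 genes carry the same seed and are best known from multiciliated epithelia.

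The rat mature sequences from RefSeq (assembly GRCr8) are shown because the seed divides the family by arm. RefSeq held a sequence for each of the 6 listed rows. They are written 5′ to 3′ with the seed in capitals.
miR-34a-5p: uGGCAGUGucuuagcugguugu
miR-34b-5p: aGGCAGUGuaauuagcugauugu
miR-34c-5p: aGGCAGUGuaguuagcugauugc
miR-449a-5p: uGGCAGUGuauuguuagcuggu
miR-449c-5p: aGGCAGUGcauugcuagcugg
miR-34a-3p: aAUCAGCAaguauacugcccua
miR-34b-3p: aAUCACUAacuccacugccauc
miR-34c-3p: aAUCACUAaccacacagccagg
The 5p arms of miR-34 and miR-449 all carried the seed GGCAGUG. No other row of the table with a rat sequence shared it, although only 312 of the 635 rows had a rat mature sequence of the same name. The 3p arms of miR-34b and miR-34c shared the seed AUCACUA, and miR-34a-3p had AUCAGCA, a seed of its own in this list. Counted from the 5′ end, miR-34b-5p and miR-34c-5p differed only by A11G and U23C over 23 bases. Between miR-34b-3p and miR-34c-3p there were 5 differences over 22 bases, U11C, C12A, U16A, U21G and C22G. The mouse sequences that the row names refer to were not used here.

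The hairpins are shown because the arm with more reads lay on different sides within the family. The arm with more reads over both libraries is in capitals.
Mir34a: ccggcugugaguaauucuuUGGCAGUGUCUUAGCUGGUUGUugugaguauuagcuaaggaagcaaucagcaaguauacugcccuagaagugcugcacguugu
Mir34b: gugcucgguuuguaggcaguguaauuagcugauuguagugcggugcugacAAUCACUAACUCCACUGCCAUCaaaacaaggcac
Mir34c: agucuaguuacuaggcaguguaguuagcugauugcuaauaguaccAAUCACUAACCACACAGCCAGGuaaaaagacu
In GRCr8, Mir34a lies at chr5:165815952-165816053 on the plus strand, and Mir34b at chr8:60306609-60306692 and Mir34c at chr8:60306091-60306167 on the minus strand. Only 441 bases separate Mir34b and Mir34c, which are known to be cut from a shared primary transcript. The Mir449c and Mir449a hairpins, with 1436 bases between them, lie on chromosome 2.

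The miRNA reads, summed over all rows, numbered 102608 in NC-Exo against 133155 in HC-Exo, and some may stand under several names. Levels are given as reads per 1000000 miRNA reads (RPM), so that a single read was worth 9.75 RPM in NC-Exo against 7.51 RPM in HC-Exo. Intervals are exact (Clopper-Pearson, 95%) and reflect only the error of counting, since reads copied by PCR are not independent molecules. All 7 muscle miRNAs of a marker list were present and made up 16.9% of the reads in NC-Exo against 18.4% in HC-Exo. Most of this was miR-1a-3p, with 16.2% and 17.5%, whereas miR-208a-3p had 9 and 24 reads and miR-499-5p 10 and 35. Mesenchymal markers took 3.84% and 3.94%, endothelial markers 9.11% and 6.68%, and blood markers 1.43% and 1.51%. The endothelial markers were the arms of miR-126a, with 8.65% and 6.15% for the 5p arm and 0.462% and 0.535% for the 3p arm. Among the blood markers, miR-486a-5p and miR-486b-5p had equal counts, 654 and 875 reads each, and may hold the same reads. The 5 epithelial markers listed held 9 reads in NC-Exo against 7 in HC-Exo together. The exosomes thus carried the muscle miRNAs of the labelled cells, beside miRNAs known from other cells of the heart. The part of those cells in the miR-34 reads was not tested, and in bulk libraries fewer cells of a type and less of a miRNA per cell cannot be told apart.

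The 6 miR-34 rows together held 177 reads in NC-Exo, which is 1725 RPM (1480 to 1998), and 239 reads in HC-Exo, which is 1795 RPM (1575 to 2037). The family thus took 0.173% of the miRNA reads in NC-Exo against 0.179% in HC-Exo. HC-Exo over NC-Exo gave a ratio of 1.04 (0.853 to 1.27). The summed level therefore stood within counting error between the libraries, and its interval reached neither 2-fold higher nor 2-fold lower. The sign of the log2 ratio depended on the scaling, with 0.06 by totals and -0.07 with upper-quartile factors.

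Of the 5p arms, miR-34a-5p, the best studied p53-induced member, was the only abundant one. Its 66 reads in NC-Exo stood for 643 RPM (498 to 818), and its 106 reads in HC-Exo for 796 RPM (652 to 963). This placed it at rank 104 of the miRNAs of NC-Exo and rank 101 of those of HC-Exo. The level was nominally higher with Ang II and the intervals overlapped. HC-Exo over NC-Exo gave a log2 ratio of 0.31 (-0.15 to 0.77).

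For miR-34b-5p, 0 reads were counted in NC-Exo against 5 in HC-Exo, which is 37.6 RPM (12.2 to 87.6). For miR-34c-5p, 0 reads were counted in NC-Exo against 4 in HC-Exo, which is 30.0 RPM (8.18 to 76.9). A count of 0 in NC-Exo allows a level of up to 29.2 RPM when taken as 3 reads, and of up to 36.0 RPM by the exact interval. The exact intervals of their ratios reached down to 0.706 and 0.509, so for neither arm alone was a difference detectable at this depth. How reads common to these near-identical arms were assigned is not known, so each count is uncertain on its own. Other rows, such as miR-486a-5p and miR-486b-5p with 654 and 875 reads each, had equal counts, so a read can stand under several names. Summed, the arms had 0 and 9 reads, which may count the same reads more than once. If all 9 were separate reads, the exact interval of that ratio began at 1.52 and had no upper end. The sum was formed with its values in view and was not tested. Of the 635 miRNAs, 11 had 0 reads in NC-Exo and at least 4 in HC-Exo, and 5 had 0 reads in HC-Exo and at least 4 in NC-Exo.

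Of the 3p arms, miR-34b-3p was the most abundant. Its 69 reads in NC-Exo stood for 672 RPM (523 to 851), and its 86 reads in HC-Exo for 646 RPM (517 to 798). The libraries were close, and the log2 ratio was -0.06 (-0.53 to 0.42). Its rank was 101 in NC-Exo against 108 in HC-Exo.

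The count of miR-34c-3p, from the neighbouring hairpin, was 38 reads in NC-Exo, which is 370 RPM (262 to 508), and 33 reads in HC-Exo, which is 248 RPM (171 to 348). It was nominally lower in HC-Exo, with a log2 ratio of -0.58 (-1.30 to 0.13), and its rank was 141 in NC-Exo against 179 in HC-Exo. For miR-34a-3p, the minor arm of its hairpin, 4 and 5 reads were counted, which is 39.0 RPM in NC-Exo against 37.6 RPM in HC-Exo. The interval of its ratio ran from 0.207 to 4.85, so neither an increase nor a decrease could be read from it.

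**Figure D1:**
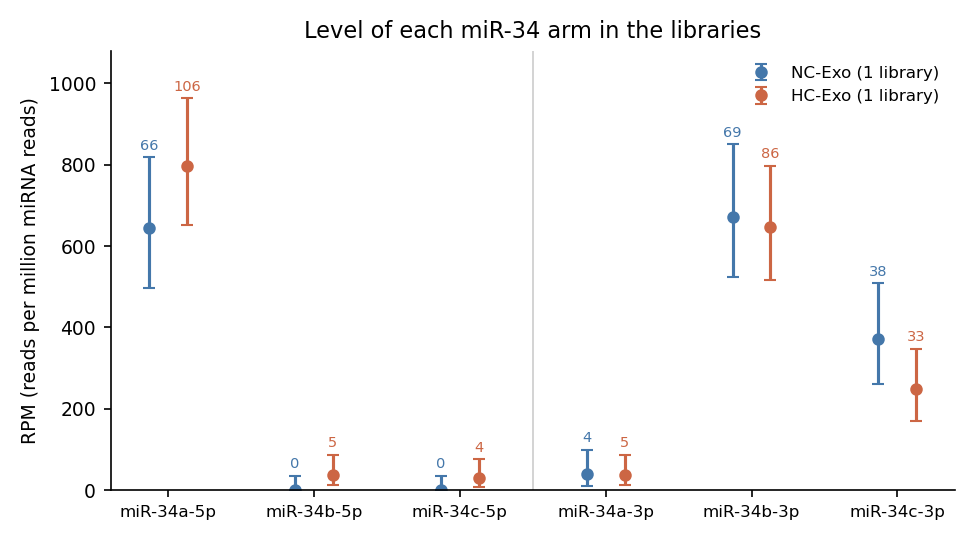
Level of the 6 miR-34 arms in RPM in NC-Exo (blue) and HC-Exo (orange), 1 library each, with 95% Clopper-Pearson intervals and the read counts printed above the points. The levels of miR-34a-5p, miR-34b-3p and miR-34c-3p are 248 to 796 RPM, and the other arms lie at or under 39.0 RPM. The intervals of NC-Exo and HC-Exo overlap for every arm.

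In NC-Exo the order of the levels in RPM was miR-34b-3p, miR-34a-5p and miR-34c-3p, with the remaining arms at or under 39.0 RPM. The first pair overlapped widely, and the intervals of miR-34a-5p and miR-34c-3p barely overlapped. In HC-Exo the order was miR-34a-5p, miR-34b-3p and miR-34c-3p, the first pair again overlapping and miR-34c-3p lying below both. Among the family's reads, miR-34a-5p made up 37.3% in NC-Exo (30.1 to 44.9%) and 44.4% in HC-Exo (37.9 to 50.9%). The share of miR-34b-3p was 39.0% (31.8 to 46.6%) and 36.0% (29.9 to 42.4%). That of miR-34c-3p was 21.5% (15.7 to 28.3%) and 13.8% (9.70 to 18.8%). These shares do not depend on the scaling of the libraries, and for each of these arms the intervals of NC-Exo and HC-Exo overlapped.

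A two-sided exact binomial test set the reads of HC-Exo against those of NC-Exo for the 340 miRNAs with 10 or more reads in all, and p-values were adjusted over these 340 (Benjamini-Hochberg). Calls required an adjusted p-value under 0.05 together with a 2-fold ratio. It tests a difference of libraries, not of conditions. Of the 6 miR-34 rows, 3 had enough reads, and 0 of these 3 were called, where 4.71% of all tested miRNAs were called. None of the 3 had an unadjusted p-value under 0.05 either, against 32.4% of all tested miRNAs. The exact test of edgeR, run under an assumed variation of 0.2 between cultures, called 0 of all 340 miRNAs, so its count of 0 members says nothing about them. The adjusted p-value was 0.376 for miR-34a-5p, 0.900 for miR-34b-3p and 0.236 for miR-34c-3p in the exact binomial test. A ratio of 2-fold lay outside the intervals of miR-34a-5p and miR-34b-3p in both directions, whereas the interval of miR-34c-3p reached past 2-fold lower.

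For comparison at like depth, the table held 63 miRNAs with 71 to 172 reads over both libraries, the span of the 3 tested miR-34 arms, which are among them. Their log2 ratios ran from -0.64 to 0.82 between the 10% and 90% quantiles, with a median of 0.12, and 5 of the 63 were called. The ratios of miR-34a-5p, miR-34b-3p and miR-34c-3p all fell within that span.

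**Figure D2:**
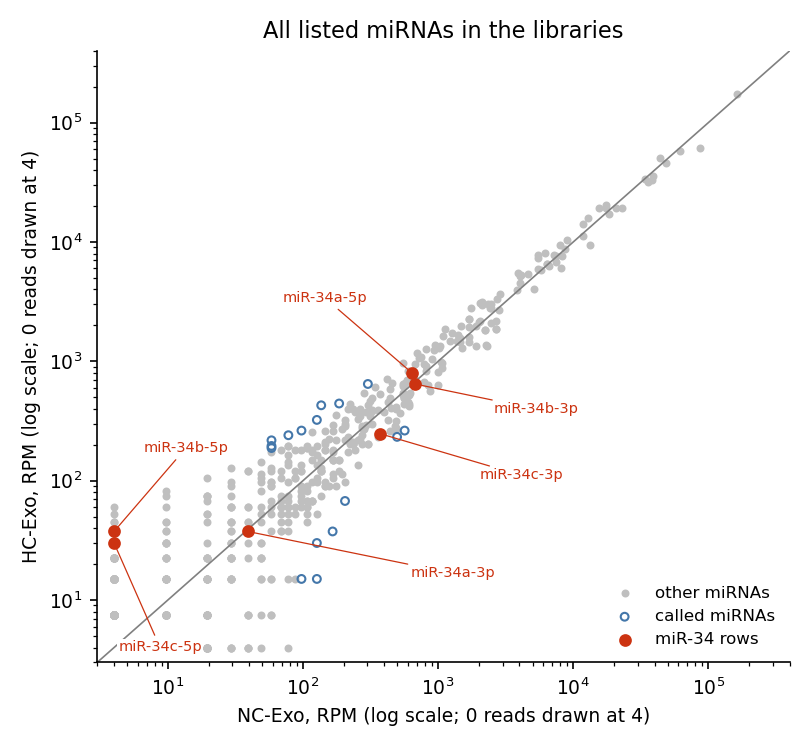
Level of every listed miRNA in NC-Exo (x axis) and HC-Exo (y axis) in RPM on log scales, with rows at 0 reads drawn at 4 RPM. The miR-34 rows (red) fall among the other miRNAs (grey) around the line of equal level, and none coincides with the 16 called miRNAs (open blue circles).

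Summed by seed, the 5p arms with GGCAGUG had 66 reads in NC-Exo, which is 643 RPM (498 to 818), and 115 reads in HC-Exo, which is 864 RPM (713 to 1037). The ratio was 1.34 (0.984 to 1.85), and this sum may count reads of miR-34b-5p and miR-34c-5p more than once. The arms with AUCACUA, miR-34b-3p and miR-34c-3p, had 107 and 119 reads, which is 1043 RPM (855 to 1260) and 894 RPM (740 to 1069). Their ratio was 0.857 (0.654 to 1.12). The seeds leaned to opposite sides, and both intervals held a ratio of 1. The 3p arms together made up 62.7% of the family's reads in NC-Exo (55.1 to 69.9%) and 51.9% in HC-Exo (45.4 to 58.4%). Over all rows named by arm, the 3p share was 54.1% in NC-Exo against 56.4% in HC-Exo.

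The 3 tested arms were also compared with each other, as the ratio of one arm divided by the ratio of another with its exact conditional interval, which needs no library scaling. That quotient was 1.29 for miR-34a-5p over miR-34b-3p (0.809 to 2.05) and 1.43 for miR-34b-3p over miR-34c-3p (0.786 to 2.62). For miR-34a-5p over miR-34c-3p it was 1.84 (1.02 to 3.36). The interval of this last pair lay just above 1, but the intervals are not adjusted for the 3 pairs, and no test was made.

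**Figure D3:**
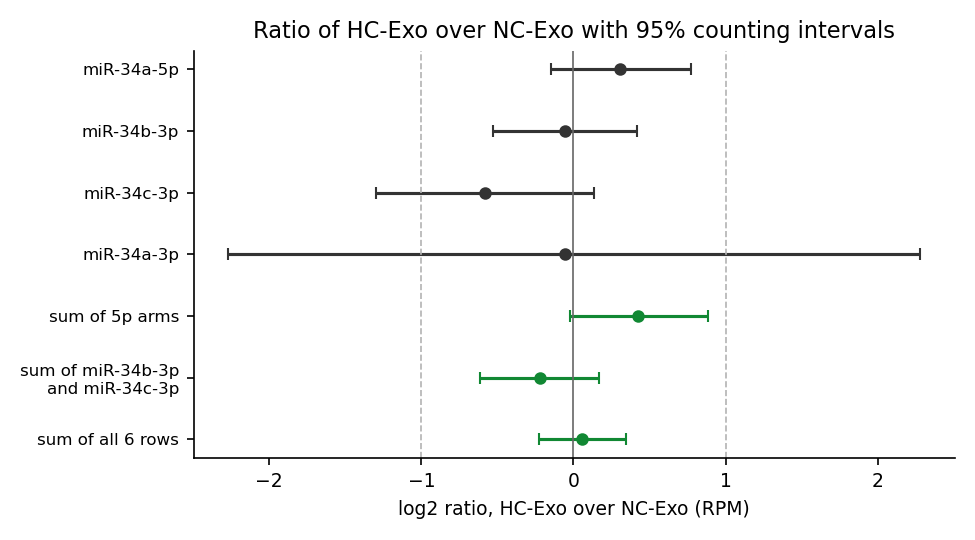
HC-Exo over NC-Exo as a log2 ratio for the miR-34 arms with reads in both libraries (black) and for sums of arms (green), with exact 95% intervals and dashed lines at 2-fold. All intervals include 0, with -0.15 to 0.77 for miR-34a-5p and -2.27 to 2.28 for miR-34a-3p, and miR-34b-5p and miR-34c-5p are left out because NC-Exo had 0 reads.

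The arms with most reads came from opposite sides of the hairpins. In miR-34a, the 5p arm had 94.3% of the reads of both arms in NC-Exo (66 of 70, 86.0 to 98.4%) and 95.5% in HC-Exo (106 of 111, 89.8 to 98.5%). In miR-34b, the 3p arm had 69 of 69 reads in NC-Exo (94.8 to 100%) and 86 of 91 in HC-Exo, which is 94.5% (87.6 to 98.2%). In miR-34c, the 3p arm had 38 of 38 reads in NC-Exo (90.7 to 100%) and 33 of 37 in HC-Exo, which is 89.2% (74.6 to 97.0%). The side of the hairpin was the same in both libraries for each of the 3 hairpins. The 5p arms of miR-34b and miR-34c, which share the seed of miR-34a-5p, thus accounted for 0 of 107 reads of these hairpins in NC-Exo, which allows a share of up to 2.80% when taken as 3 reads and 3.39% by the exact interval, and for 9 of 128 in HC-Exo, which is 7.03% (3.27 to 12.9%). The exact intervals of these shares overlapped slightly, and the 9 reads may include the same reads under both names.

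Hairpins with reads of both arms under a common name numbered 160, and 134 of them had at least 20 reads. A 3p share above 50% was found in 84 of the 134, and a share of at least 90% in 49, or 36.6%. With 96.9% over both libraries, miR-34b ranked 30 of 134 by its 3p share, miR-34c ranked 35 with 94.7%, and miR-34a ranked 112 with 4.97%. From NC-Exo to HC-Exo the 3p share moved by -5.49 percentage points in miR-34b, -10.8 in miR-34c and -1.21 in miR-34a. In miR-34b and miR-34c the direction was fixed in advance. Their share was 100% in NC-Exo, and hairpins without any 5p read were not counted here. Among the 30 hairpins with 75 to 181 reads, which include those of miR-34, the share fell by at least 5 points in 8. These 8 include miR-34b and miR-34c. A rise of at least 5 points was seen in 5. Both arms of miR-34b and of miR-34c begin with A in the rat sequences. This held for 11 of 81 hairpins with sequences of both arms, the miR-34 hairpins being among the 81. The abundant arm of miR-34a begins with U. Over the 81, the abundant arm began with U in 34 and with A in 20.

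**Figure D4:**
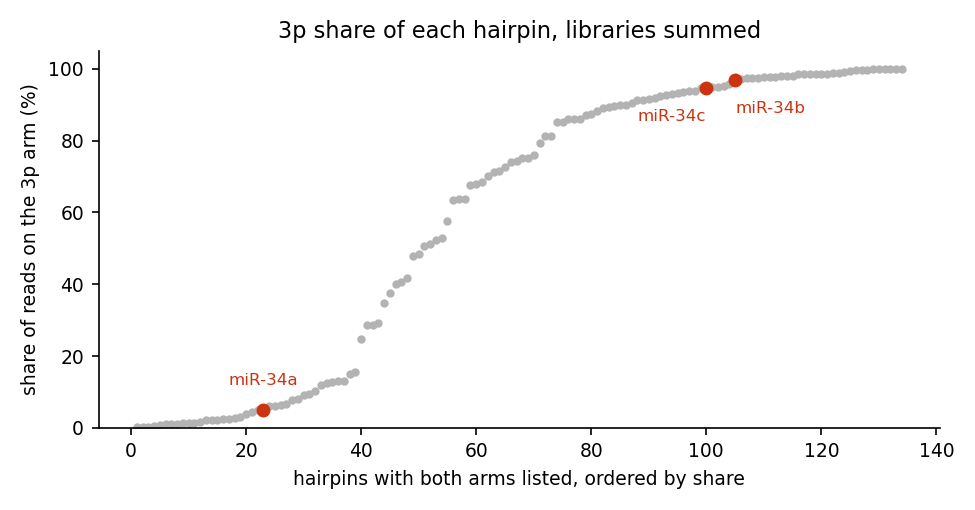
Share of reads on the 3p arm, in percent, for each of 134 hairpins with at least 20 reads over both libraries, ordered from lowest to highest. In red, miR-34a lies at the low end with 4.97%, and miR-34b and miR-34c lie close together in the upper part with 96.9% and 94.7%.

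Similar levels were sought among the other tested miRNAs by their Euclidean distance in log2 RPM over NC-Exo and HC-Exo, so on a pair of values each. The nearest to miR-34a-5p were miR-136-3p at a distance of 0.08, miR-30b-5p at 0.13 and miR-542-3p at 0.14. The nearest to miR-34b-3p were miR-542-3p at 0.17, miR-329-3p at 0.22 and miR-532-3p at 0.22. For miR-34c-3p they were miR-5128 at 0.10, miR-1306-5p at 0.26 and miR-361-5p at 0.34.

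Other miRNAs linked to p53, either through their transcription or through their processing, were taken as a list of 11. Of these, 10 were listed in the table, all but miR-605-5p, and 7 had enough reads for the test. Among these 7, 0 were called higher, against 2.65% of all tested miRNAs, and 1 was called lower, against 2.06%. Their median log2 ratio was 0.09, beside 0.10 for all tested miRNAs. The called miRNA was miR-215-5p, counted 21 times in NC-Exo and 9 times in HC-Exo. Of its relatives in p53 signalling, miR-192-5p, which shares its seed, gave a log2 ratio of 0.09 (-1.02 to 1.24) from 13 and 18 reads, and miR-194-5p gave 0.82 (-0.03 to 1.74) from 17 and 39 reads.
Far more abundant were miR-16-5p, miR-143-3p and miR-145a-5p, whose processing p53 is known to promote. For miR-16-5p, which acts on cell cycle mRNAs, 115 and 249 reads gave 1121 and 1870 RPM. Its log2 ratio was 0.74 (0.41 to 1.07), under the 2-fold limit, with an adjusted p-value of 5.93e-05 in the exact binomial test. For miR-143-3p, known from smooth muscle, 1596 and 2571 reads gave 0.31 (0.22 to 0.40), with an adjusted p-value of 6.28e-10 in the exact binomial test. Its cluster partner miR-145a-5p gave 0.02 (-0.12 to 0.16) from 768 and 1011 reads. The log2 ratio of miR-107-3p was -0.18 (-1.31 to 0.96) from 14 and 16 reads. Too few reads for the test were found for miR-15a-5p, with 0 and 8, miR-200c-3p, with 0 and 1, and miR-141-3p, with 2 and 0.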

How the data were processed

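Exosomal small RNA was sequenced from 2 conditions with 1 library each. The submitters' processing notes name Bowtie2 as a tool and mm9 and GRCm38 as builds, without their roles. Trimming and mismatch settings are not given in the sources used here. Raw read counts for each mature miRNA were deposited by the authors, and the 635 names all carry the mouse prefix although the cells were from rats. How reads of rat sequences that differ from mouse were counted, and how reads matching several names were shared, is not given in the sources used here. Several groups of related names had equal counts in both libraries, such as miR-486a-5p and miR-486b-5p with 654 and 875 reads each. Reads matching several names thus probably stand under each of them, and the library totals may hold some reads more than once. The authors also deposited normalized values, a signal equal to the counts of a library times 1 constant in all but 1 of the 635 rows (miR-466i-5p, within a tolerance of 0.5 reads). This signal, worth 12.1 units for a read of NC-Exo and 9.23 for a read of HC-Exo, served only as an alternative scaling. A deposited table of the authors' own fold changes and p-values was not used.
Counts were divided by the library totals to give RPM. The exact binomial test needed at least 10 reads over both libraries. Tested on simulated data with 200 miRNAs changed 4-fold, it called 198 of them and 4 of 139 unchanged ones. The simulation held counting error only, without variation between cultures. The test was given the depths used to draw the counts, not the simulated totals, so scaling by totals was not checked. Its changes were placed only on miRNAs above a minimum of expected reads, so these rates need not hold for the libraries here. Alternatives covered the scaling, the filter, the fold limit, the pseudocount and an assumed spread. Python 3.11.15 with scipy 1.17.1, and R 4.3.3 with edgeR 4.0.16 and DESeq2 1.42.0 were used. Named miRNAs were every member, the 3 nearest to each tested member, the p53-linked list, and some markers and other rows given as examples. The members and lists were chosen with earlier results of these data known.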

Additional observations from a re-analysis of the deposited data

How the results depend on the processing

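No paired analysis was possible because each condition has only 1 library, and leaving out replicates could not be tried either. The log2 ratios of miR-34a-5p, miR-34b-3p and miR-34c-3p kept their sign under all 8 alternatives run for each, with 0.18 to 0.31, -0.18 to -0.06 and -0.70 to -0.55. The 5 other scalings shifted all log2 ratios by -0.12 to -0.01, so the negative signs could not have reversed under them. The exact test of edgeR used the same totals. A pseudocount pulls a log2 ratio toward a negative value, as HC-Exo has more reads in all. The negative signs thus could not have reversed under these alternatives either. Under any scaling, filter or fold limit, 0 members were called. The lowest adjusted p of a member over these settings was 0.133, for miR-34c-3p with upper-quartile factors (exact binomial test). The log2 ratio of the family sum ran from -0.07 to 0.04 over 5 other scalings. It was 0.43 for the 5p arms only, a different set of rows, and -0.12 without miR-34a-5p. Counted among the family's 5p arms only, miR-34a-5p made up 100% of these reads for NC-Exo and 92.2% for HC-Exo.
Over all miRNAs, 16 were called. A minimum of 10 reads in each library left 8 calls, a minimum of 50 reads over both left 7, a limit of 1.5-fold gave 33, and the exact test of edgeR under an assumed variation of 0.2 between cultures (coefficient of variation) gave 0, with 20 at an unadjusted p under 0.05 and at least 2-fold. The stricter minimums tested fewer miRNAs. Upper-quartile factors gave 12 calls among the 340 tested miRNAs, 41.7% of them higher in HC-Exo against 56.2% by totals. Of the 7 muscle markers, all tested, 2 were called higher by totals, where 4.71% of all tested miRNAs were called in either direction. With upper-quartile factors 1 of the 7 was called. With 71 to 172 reads per tested arm, depth limits the precision of every ratio given here.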

Other observations

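Of a list of 15 miRNAs known from cardiac stress and hypertrophy, all were listed in the table and 14 had enough reads for the exact binomial test, with 2 called higher, against 2.65% of all tested miRNAs, and 1 called lower, against 2.06%. The list's log2 ratios ran from -1.09 to 1.43 with a median of 0.19, beside 0.10 for all tested miRNAs. Several of these miRNAs also stand in the lists of muscle and mesenchymal markers.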
